A study of Mus musculus with 4 samples.

Results

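The genes that encode eukaryotic translation initiation factors were examined for Runx3 binding in splenic CD4+ dendritic cells (DC). They were taken by symbol, as protein-coding genes of the GENCODE M1 annotation on mm9 whose symbol starts with Eif and a digit, which gave 58 of 22367 protein-coding genes. A Runx3 peak was counted for a gene when its centre lay within 5 kb of any annotated transcription start site (TSS) of that gene. By this rule 30 of the 58 genes had a peak (51.7%), against 31.1% of all protein-coding genes, and 36 of the 15121 peaks were involved. The symbol rule also takes Eif2c1 to Eif2c4, the older symbols of the Argonaute genes, whose proteins bind small RNAs and are not initiation factors by function. Without them, 27 of 54 genes had a peak (50%).

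Runx3 is a transcription factor of the RUNX family, and ChIP-seq maps the chromatin it occupies by sequencing the DNA that an antibody to it recovers. The cells were freshly sorted CD11chiMHCII+CD4+ splenic conventional DC collected from approximately 15 mice per experiment, fixed and frozen. There were 2 biological replicate immunoprecipitates with an in-house polyclonal anti-Runx3 antibody and 2 input samples of fragmented whole cell chromatin. The strain is given as C57BL/6 for 3 samples and as C57BL/7 for the second input, no genetic change or treatment is given for any group, and cells lacking Runx3 were not part of the comparison. The deposited peak list is 1 call on both immunoprecipitates against both inputs, with a start, an end and a MACS2 score for each peak. Since the replicates were pooled before the call, their spread is unknown and all comparisons are descriptions without a test. The score, in a unit the sources do not name, lay between 1.33 and 309.3 (median 12.14, upper quartile 23.19) and was compared only among peaks of this list. The depth of each sample was not analysed here, and a gene without a peak is one at which no peak was called at this depth. Peaks do not measure expression, so peaks at marker genes do not establish the identity of the cells. Of 8 CD4+ DC markers, 4 had a peak (Flt3, Itgam, Itgax and Sirpa), while Cd4, Esam, Irf4 and Zbtb46 had none. Peaks were also present at 2 of 3 CD8+ DC markers (Batf3 and Xcr1) and 1 of 2 plasmacytoid DC markers (Tcf4). They were present at 1 of 2 T cell (Cd3d), 1 of 2 B cell (Cd79a) and 0 of 1 neutrophil markers. Over all protein-coding genes the share was 31.1%, and these counts do not tell the cell types apart.

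Initiation of translation assembles a ribosome on the start codon of an mRNA. The factor eIF2 carries the initiator tRNA and is recharged with GTP by eIF2B, while stress kinases phosphorylate eIF2 and so lower initiation. The factor eIF3 holds the small ribosomal subunit, and the eIF4 proteins bind the cap, unwind the leader and bridge the mRNA to eIF3. Several of these steps are controlled when immune cells are activated or stressed.

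The sequences under the strongest peaks are shown first, since RUNX proteins bind DNA through a short core motif. The core was searched as the hexamers TGTGGT and TGCGGT, which differ in 1 base, on both strands of the whole peak. Of the 10 initiation factor peaks with the highest scores, 9 held at least 1 of them. Over all 36 peaks of the group the share was 61.1%, and over peaks within 5 kb of any protein-coding TSS it was 60.0%. Wider peaks offer more bases for a match, and width was not held equal. The lines below give 30 bases around the hexamer nearest the peak centre, 5′ to 3′ on the strand that carries the motif, in lower case with the hexamer in capitals, on mm9.
Eif3g, chr9:20703151-20703180, minus strand: atctcagcgcttTGCGGTgcgcgagagccg
Eif4g3, chr4:137550601-137550630, plus strand: tgtgttgtggctTGTGGTggagccggctaa
Eif4a1, chr11:69485580-69485609, minus strand: cgctgaccccagTGTGGTtacggggaagga
Eif2a, chr3:58329763-58329792, minus strand: gaagagcctggcTGCGGTggcggccggcgc
Eif2s1, chr12:79962478-79962507, minus strand: ttctggaggtgtTGCGGTcccgattgtctc
Eif2b5, chr16:20498798-20498827, plus strand: agtagcacctacTGCGGTcagccacgccct
Eif5a, chr11:69733334-69733363, minus strand: ccaaagaggcctTGTGGTttcctgtaccaa
Eif4g2, chr7:118226312-118226341, minus strand: agaggaggcagcTGCGGTggcagctgctga
Eif2b4, chr5:31495374-31495403, minus strand: cacagtcatggcTGCGGTggcggtggctgt
The hexamer lay 23 bp from the peak centre at Eif2a, 26 bp at Eif3g, 35 bp at Eif2b4, 37 bp at Eif5a, 67 bp at Eif4g3 and 77 bp at Eif2b5. It lay farther out at Eif4g2 (172 bp), Eif2s1 (237 bp) and in the wide peak of Eif4a1 (375 bp). Only the peak of Eif4a2 held neither hexamer among these 10.

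For 3 of these peaks a stretch of 300 bases that overlaps no annotated exon is given, because each shows the hexamer in a different setting: directly upstream of a TSS, in the second intron of a long gene, and in the second intron of a short one. Letters in capitals mark the hexamer.
Eif3g, upstream of the gene, chr9:20703045-20703344, minus strand: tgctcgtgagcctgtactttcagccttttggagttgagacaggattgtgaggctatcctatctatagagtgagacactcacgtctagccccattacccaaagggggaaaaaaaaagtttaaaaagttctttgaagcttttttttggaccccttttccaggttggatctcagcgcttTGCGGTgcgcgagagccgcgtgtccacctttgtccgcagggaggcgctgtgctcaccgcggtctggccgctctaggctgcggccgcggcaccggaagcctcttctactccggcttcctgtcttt
Eif4g3, intron, chr4:137550400-137550699, plus strand: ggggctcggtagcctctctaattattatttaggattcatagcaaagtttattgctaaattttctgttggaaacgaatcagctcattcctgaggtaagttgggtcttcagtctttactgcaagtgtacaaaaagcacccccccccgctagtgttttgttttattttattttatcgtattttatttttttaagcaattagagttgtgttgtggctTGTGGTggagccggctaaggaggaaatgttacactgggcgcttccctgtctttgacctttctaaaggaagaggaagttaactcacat
Eif5a, intron, chr11:69733163-69733462, minus strand: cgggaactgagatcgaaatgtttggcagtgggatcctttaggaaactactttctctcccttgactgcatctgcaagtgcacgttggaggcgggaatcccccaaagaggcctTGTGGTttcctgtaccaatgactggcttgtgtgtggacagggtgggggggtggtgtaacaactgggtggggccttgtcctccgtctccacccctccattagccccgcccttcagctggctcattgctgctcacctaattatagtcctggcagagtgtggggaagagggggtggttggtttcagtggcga

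The subunits of eIF3, the scaffold of the small ribosomal subunit, included the strongest peak of all these genes. Eif3g had a peak at chr9:20702835-20703446 with a score of 104.35, rank 132 of the 15121 peaks, centred 96 bp upstream of its TSS. The other 5 bound subunits had far lower scores. Eif3b, which carries an RNA recognition motif in the eIF3 core, had a score of 13.22 at chr5:140894311-140894619, 794 bp upstream. Eif3d, a subunit that can bind the mRNA cap, had 12.69 at 116 bp upstream, and Eif3a, the largest subunit, had 11.96 at 53 bp upstream. Eif3h had 9.16 and Eif3j 8.31, the latter 894 bp downstream in the second intron. The remaining 7 of 13 subunits, Eif3c, Eif3e, Eif3f, Eif3i, Eif3k, Eif3l and Eif3m, had no peak within 5 kb. Their nearest peak centres lay from 12285 bp (Eif3l) to 269773 bp (Eif3f) away. The share of bound subunits, 6 of 13, was thus no more complete than in the whole group, and the high score of Eif3g stood alone among them.

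**Figure D1:**
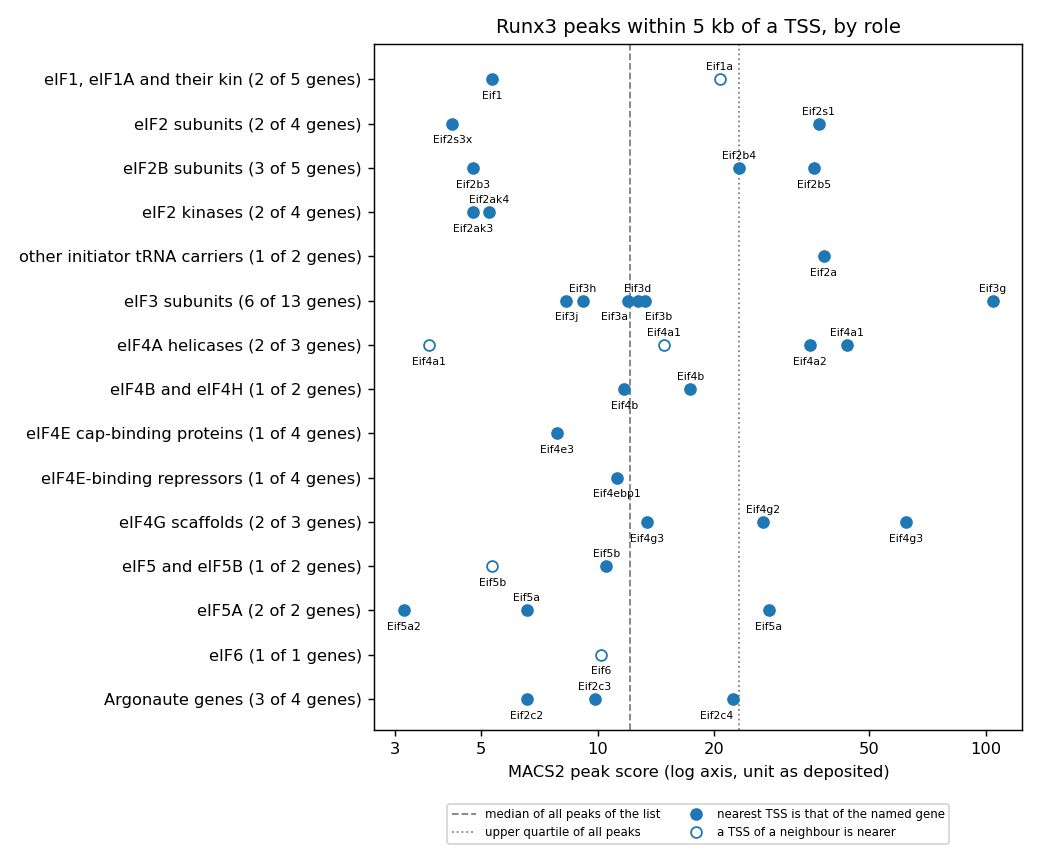
Each point is 1 of the 36 peaks, placed by its MACS2 score (x axis, log scale, unit as deposited) in the row of its gene's role, with the number of genes with a peak in brackets. The vertical lines mark the list median of 12.14 and the upper quartile of 23.19, and open circles are the 5 peaks with a neighbouring gene's TSS nearer. Eif3g at 104.35 stands to the right of all other points.

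Of the eIF2 subunits, which carry the initiator tRNA to the ribosome, Eif2s1 (the alpha subunit, the one phosphorylated under stress) had a peak of 37.12 at chr12:79962271-79963189, centred 76 bp upstream of its TSS. Eif2s3x, the X-linked gamma subunit gene, had a weak peak of 4.23 over its TSS. Eif2s2, the beta subunit gene, had its nearest peak centre 102000 bp away. For the Y-linked Eif2s3y no distance can be given, since the list had 0 peaks on chromosome Y and 179 on chromosome X. The 3 genes of the trimer thus ranged from a peak in the upper quartile to none. Eif2a and Eif2d encode other proteins that can deliver initiator tRNA. Eif2a, a gene distinct from Eif2s1 despite its name, had a peak of 38.27 at chr3:58329473-58330038, in its first exon and centred 12 bp from a TSS. Eif2d had no peak within the limit but one of 43.14 at 6776 bp.

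The exchange factor eIF2B has 5 subunits, and 3 of their genes had a peak. Eif2b5, the catalytic epsilon subunit gene, had a score of 36.14 at chr16:20498523-20498949, 154 bp upstream of its TSS. Eif2b4 (delta) had 23.19, exactly the upper quartile of the list, at chr5:31495126-31495722, 37 bp upstream. Eif2b3 (gamma) had 4.79 at 19 bp. Eif2b1 (alpha) and Eif2b2 (beta) had none, their nearest peak centres being 22059 bp and 26665 bp away. The kinases that phosphorylate eIF2 sat at the low end. Eif2ak4 (GCN2, which senses amino acid shortage) had 5.26 at 84 bp upstream, and Eif2ak3 (PERK, which senses stress of the endoplasmic reticulum) had 4.79 at 493 bp downstream in the first intron. Eif2ak1 (HRI, regulated by heme) and Eif2ak2 (PKR, activated by double-stranded RNA) had no peak within the limit, with nearest centres at 119100 bp and 33842 bp. Neither kinase peak reached the list median.

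The eIF4 genes encode the proteins of the cap complex. Eif4a1, a helicase that unwinds mRNA leaders, had 3 peaks, more than any other gene of the group. Its main peak, at chr11:69484357-69486084 with a score of 44.0, was 1728 bp wide, the widest of the 36, and was centred 12 bp from a TSS. The other 2, with scores of 14.82 and 3.69, lay beyond the 3′ end of the gene and nearer to Cd68, a neighbouring gene for a macrophage glycoprotein, with centres 33 bp and 321 bp from its TSS against 1877 bp and 2322 bp from an Eif4a1 TSS. Eif4a2, its close paralog, had 35.17 at chr16:23107289-23107871, 28 bp from a TSS. Eif4a3, which serves in the exon junction complex, had no peak closer than 17125 bp. Both helicases of the cap complex thus had a peak in the upper quartile over a start site.

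Among the scaffolds that join the cap complex to eIF3, Eif4g3 had the second highest score of the group. Its peak of 62.46 at chr4:137550256-137550843 (rank 615) was centred 1132 bp downstream of the nearest TSS, in the second intron, and a weaker peak of 13.43 lay 81 bp upstream of a TSS. Eif4g2, which encodes a scaffold without the cap-binding protein's site (DAP5), had 26.73 at chr7:118226108-118226890 in its first exon, 32 bp from a TSS. Eif4g1, the gene of the main scaffold, has 20 annotated TSSs and yet had no peak closer than 28675 bp. Eif4b, a partner of the helicase, had a peak of 11.73 at 14 bp upstream of a TSS and a stronger one of 17.32 at chr15:101901503-101901858, 2524 bp upstream. Eif4h, a relative of Eif4b, had none within the limit and 1 of 7.06 at 13255 bp, inside the gene.

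The cap-binding proteins and their repressors had the lowest shares of bound genes, 1 of 4 each, against 31.1% of all protein-coding genes. With 4 genes in each role, these shares are not read as a result about cap binding. Of the cap-binding genes only Eif4e3 was bound, with 7.84 at 683 bp upstream. Eif4e, the gene of the main cap-binding protein, had its nearest peak (34.2) 36423 bp away, Eif4e2 had it at 64490 bp and Eif4e1b at 5309 bp, just past the limit. Of the 4 proteins that bind eIF4E and restrain it, Eif4ebp1, a target of mTOR, had 11.24 at chr8:28370521-28370932, 73 bp upstream of its TSS. Eif4ebp2, Eif4ebp3 and Eif4enif1 had none, with nearest centres at 134964 bp, 6262 bp and 30884 bp.

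Among the factors that act with the start codon, Eif1a, which encodes a protein of the ribosomal A site, had a peak of 20.62 centred 94 bp upstream of a TSS but only 75 bp from that of Tmed7 on the other strand. Eif1, which guards start codon choice, had 5.36 at 212 bp upstream. Eif1ad, Eif1ax and Eif1b had none, the nearest centres lying 22886 bp, 160478 bp and 53578 bp away. Eif5b, which joins the ribosomal subunits, had 10.53 at 80 bp upstream and 5.36 at 666 bp, the second being 2 bp from the TSS of Txndc9. Eif5, the GTPase activator of eIF2, had a peak of 24.95 at 18277 bp and none nearer. Both genes for eIF5A, the hypusine-bearing factor that helps elongation, were bound: Eif5a with 27.64 at chr11:69733092-69733533 in its second intron, 820 bp downstream of a TSS, and 6.57 at 68 bp upstream, and Eif5a2 with 3.17, the lowest score of the group. Eif6, which keeps the ribosomal subunits apart, had 10.23 at chr2:155644825-155645156, 3226 bp from its nearest TSS, a peak that lay 172 bp from the TSS of BC029722. The 8 peaks of these factors had scores from 3.17 to 27.64, while the group reached 104.35, and 3 of the 8 lay nearer to a neighbouring gene.

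The 5 genes with more than 1 peak (Eif4a1, Eif4b, Eif4g3, Eif5a and Eif5b) each had peaks of unequal score. They made up 8.62% of the group and such genes 7.81% of all protein-coding genes, so multiple peaks were about as frequent as in the background.

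**Figure D2:**
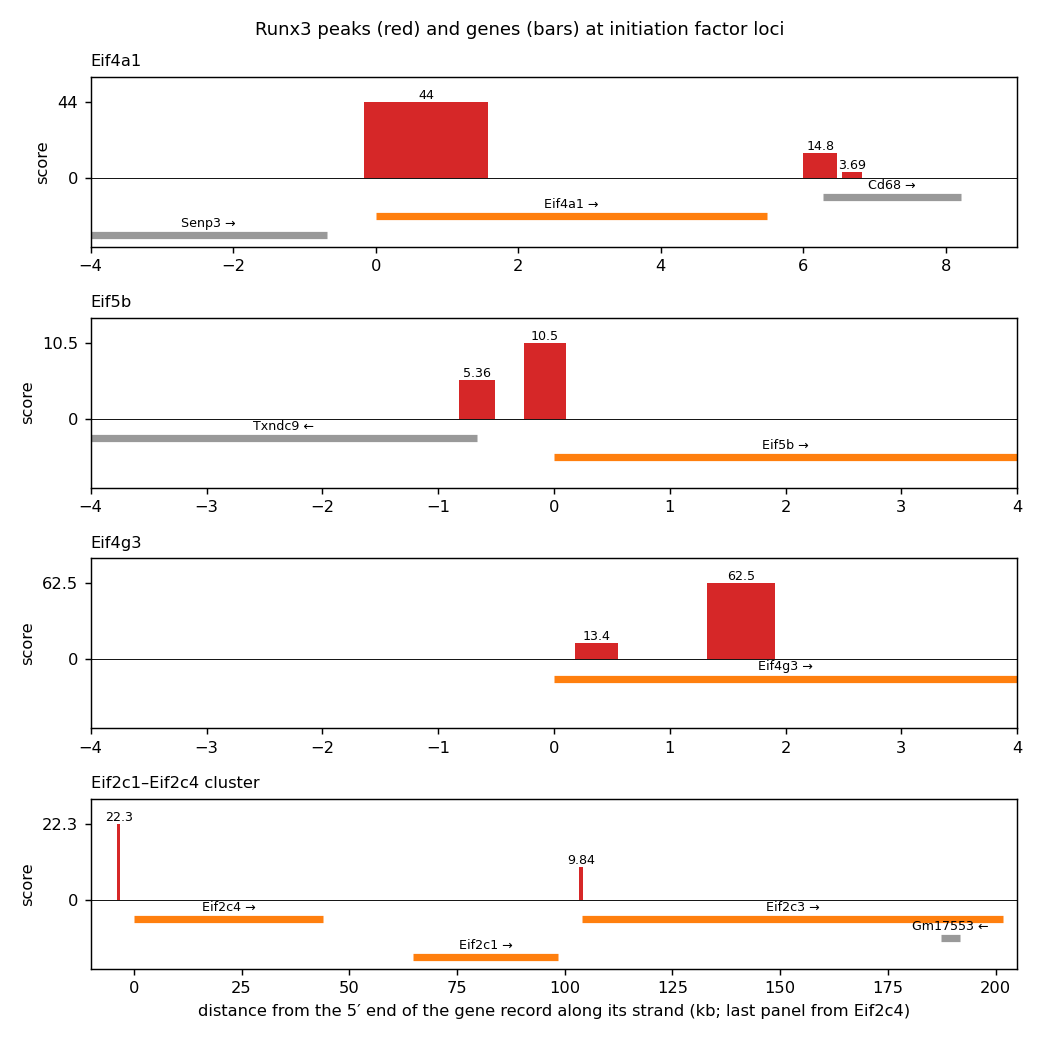
Maps of 4 loci drawn to scale, with the distance in kb from the 5′ end of the gene record along its strand on the x axis, peaks as red boxes whose height is the MACS2 score, and genes as bars (orange for genes of the group, grey for neighbours). The peaks of 14.82 and 3.69 counted for Eif4a1 lie at the start of Cd68, and in the cluster of Argonaute genes the peaks lie upstream of Eif2c4 and at the start of Eif2c3.

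The Argonaute genes taken by the symbol rule were bound in 3 of 4 cases. Eif2c4 had 22.33 at chr4:126213979-126214442, 3494 bp upstream of a TSS, Eif2c3 had 9.84 at 153 bp and Eif2c2 had 6.57 at 503 bp. Eif2c1 lies in a cluster with Eif2c3 and Eif2c4 on chromosome 4, and its nearest peak centre, 13652 bp away, was that of Eif2c3. The limit of 5 kb separated Eif2c4 (3494 bp) and Eif6 (3226 bp), the farthest genes inside it, from Eif4e1b (5309 bp), Eif4ebp3 (6262 bp) and Eif2d (6776 bp), the nearest outside.

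The scores of the group did not stand apart from those of other genes. The 36 peaks had a median score of 11.8 (quartiles 6.57 and 24.1), against 12.38 (7.2 and 22.33) for the 7617 peaks within 5 kb of any protein-coding TSS. At least the list median was reached by 17 of the 36 peaks (47.2%) and by 50.3% of the peaks near protein-coding genes, and the upper quartile by 10 (27.8%) and 24.7%. Median width was 419.5 bp and 420 bp. Counted by gene, 15 of 58 genes had a peak of at least the list median (25.9%, against 17.9% of protein-coding genes), and 10 had one of at least the upper quartile (17.2%, against 9.24%). The peaks of the group were thus of ordinary strength. The larger share of genes with a peak is set beside promoter class below. Among CpG-rich promoters that share was 56.0% in the group and 49.6% over all genes. The counts by score were not split by promoter class.

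Peaks of the group lay close to start sites. The median distance from a peak centre to the nearest TSS of the gene was 106 bp, against 215 bp for peaks near any protein-coding gene. Within 100 bp lay 18 of the 36 peaks (50%), against 34.6%, and beyond 1 kb lay 6 (16.7%), against 28%. The measures differ, since group distances were taken to the gene's own TSSs and background distances to the nearest TSS of any protein-coding gene. With the limit set at 1 kb, 28 of the 58 genes had a peak (48.3%), against 24.9% of protein-coding genes, so all but 2 of the bound genes stayed bound. The distances and the shares at 1 kb were not split by promoter class, and its part in these differences was not tested. Peak centres lay upstream of the nearest TSS in 22 cases and downstream in 14, and 21 peaks covered that TSS.

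**Figure D3:**
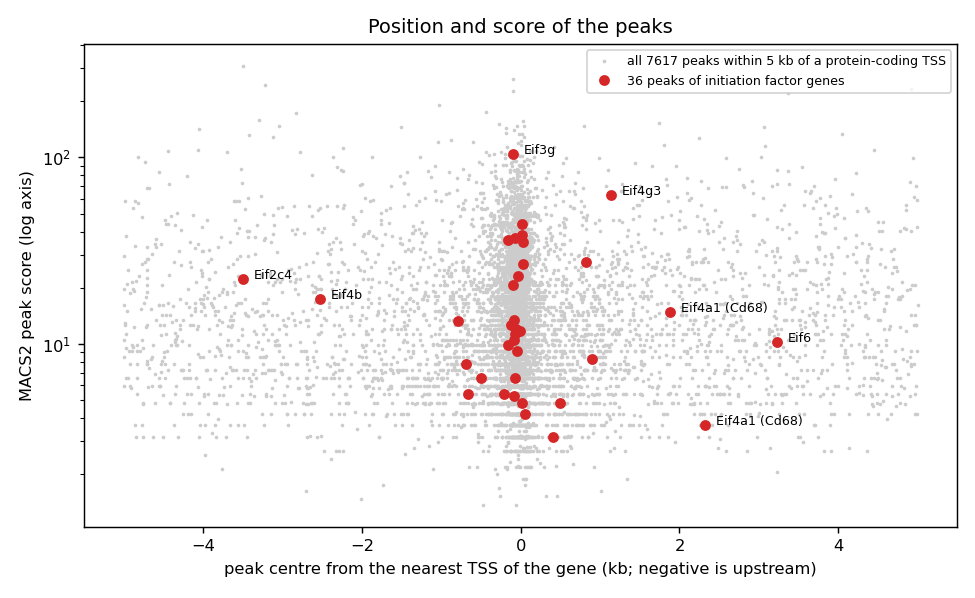
Position of the peak centre from the nearest TSS of the gene (x axis, kb, negative is upstream) against the MACS2 score (y axis, log scale). Red points are the 36 peaks of the initiation factor genes. Grey points are the 7617 peaks within 5 kb of any protein-coding TSS, placed from the nearest such TSS. The 18 red points within 100 bp form a column at the TSS, and the 6 points beyond 1 kb are named.

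Some genes of the group held Runx3 peaks far inside the gene, more than 5 kb from their TSSs. Eif2c2, the Argonaute gene whose protein cleaves target RNA, held 10 such peaks over 83.3 kb, with scores from 3.17 to 39.19 (median 11.96). The strongest lay at chr15:72992360-72992923, and for 3 of the 10 the TSS of Chrac1 was nearest. Eif4e3 held 6 over a gene record of 409 kb, with scores from 1.88 to 143.76. For all of these but the weakest the TSS of AC152987.1 was nearest. Those peaks lay 180452 to 277877 bp from the nearest Eif4e3 TSS, so position does not tie them to Eif4e3. The strongest, at chr6:99435936-99436690, ranked 43 of the 15121 peaks and lay 1617 bp from the TSS of AC152987.1. The next, at chr6:99338477-99339300, had 84.58. The first exceeded all 36 peaks near the start sites of the group, and the second all of them but that of Eif3g. Single peaks lay inside Eif4g3 (20.62), Eif2d (16.53), Eif4h (7.06) and Eif3h (4.79). Of the 10 genes of the group that span at least 50 kb, 4 held such a peak, against 29.6% of all 4837 genes of that length. Among them 2 held 5 or more, against 2.11%. These were the Argonaute gene Eif2c2 and Eif4e3, most of whose peaks lay nearer to AC152987.1.

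The promoters of these genes differ from the average in base composition. In a window of 1 kb centred on the TSS of the gene record, 50 of the 58 genes (86.2%) had a CpG-rich promoter, defined by a GC content of at least 50% and a ratio of observed to expected CpG of at least 0.6, against 44.2% of all protein-coding genes. Among CpG-rich promoters the group and the background were close: 28 of 50 genes of the group had a peak (56.0%), against 49.6% of all genes of this class. Among the other promoters 2 of 8 had one (Eif5a and Eif6, 25%), against 16.5%. Read within promoter class, the bound share was therefore near the background, and the distance from 31.1% is not read as a result about initiation factors.

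The number of annotated TSSs gave another view. With 1 TSS, 8 of 15 genes of the group were bound, against 19.7% of all such genes. With 2 or 3 TSSs it was 9 of 16, against 30.6%, and with 4 or more 13 of 27, against 48.1%. Within the group the bound share did not rise with the number of TSSs, as it did over all genes. A divergent neighbour, a protein-coding gene that starts within 1 kb on the other strand, was present for 10 genes (17.2%), against 12% of all genes. Of these 10, 5 were bound (58.5% of all genes with such a neighbour), and of the other 48, 25 were (27.4%). Bound pairs were Eif1a with Tmed7, Eif2s1 with Atp6v1d, Eif2b4 with Snx17, Eif2a with Serp1 and Eif5b with Txndc9. Except in the last pair, the peak cannot be assigned to 1 gene by position. At Eif5b a peak was centred 80 bp from its own TSS and another 2 bp from that of Txndc9.

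Most bound and unbound genes of the group had CpG-rich promoters, the bound ones more often. Such promoters were found in 28 of 30 bound and 22 of 28 unbound genes, a difference that was not tested. Median GC content of the window was 60.8% and 57.9%, and median observed over expected CpG 0.848 and 0.813. The median number of TSSs was 2.5 for bound and 3.5 for unbound genes.

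Genes of neighbouring steps were bound at similar or higher shares. Regulators and partners of initiation had a peak in 19 of 33 genes (57.6%). By score the highest were Atf4, the transcription factor induced when eIF2 is phosphorylated (45.2), and Pdcd4, an inhibitor of eIF4A with 3 peaks (highest 38.73). Next came Dnajc3, an inhibitor of eIF2 kinases (26.73), and Ppp1r15a, which directs dephosphorylation of eIF2 (26.73). Nck1 (25.84), Denr (24.06) and Rptor, a subunit of mTORC1 with 3 peaks (highest 23.39), followed. Partners without a peak included Akt1, Ddx3x, Gcn1l1 and Tsc2. Factors of elongation and termination, mitochondrial factors included, had one in 14 of 24 (58.3%). The highest were at Gspt1 (49.38), Eef2k (42.13), Tsfm (38.11) and Eef1g (27.64). The shares were 58 of 85 for cytoplasmic ribosomal proteins (68.2%), 36 of 76 for mitochondrial ribosomal proteins (47.4%) and 22 of 41 for proteasome subunits (53.7%). These are counts of gene records, and Eef2k, Psmb9 and Psmd14 are each counted under more than a single record. The 51.7% of the initiation factor genes lay within this range.

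**Figure D4:**
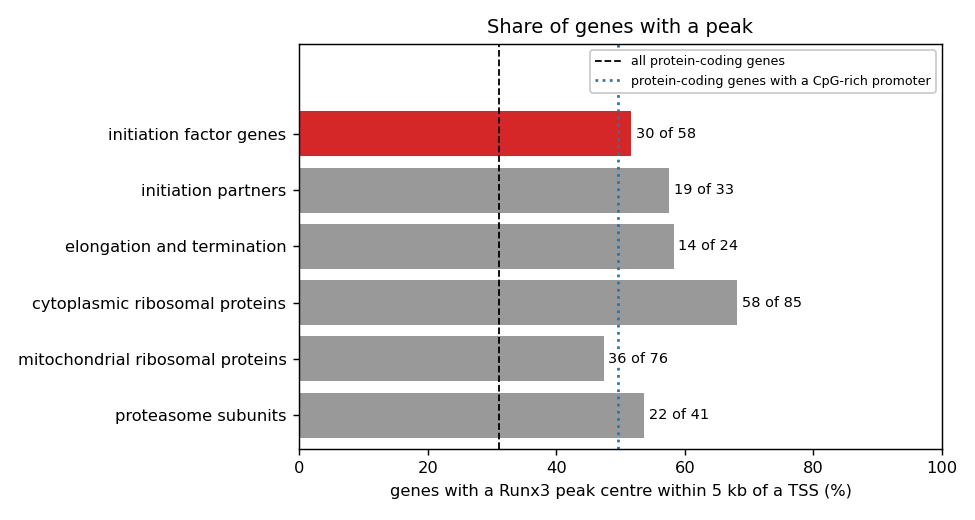
Share of genes with a Runx3 peak centre within 5 kb of a TSS (x axis, %), as bars with the counts beside them, for the initiation factor genes (red) and 5 other lists (grey). The dashed line is the 31.1% of all protein-coding genes and the dotted line the 49.6% of genes with a CpG-rich promoter. The red bar ends at 51.7%, close to the dotted line.

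The hexamers were then counted over all 36 peaks. TGTGGT was present in 10 (27.8%, with a Wilson 95% interval for counting error alone of 15.8% to 44.0%), against 41.9% of peaks near protein-coding genes. TGCGGT was present in 14 (38.9%, interval 24.8% to 55.1%), against 26.3%. Either was present in 22 (61.1%, interval 44.9% to 75.2%), against 60.0%. The sum of both forms was thus that of other promoter peaks, while the form with C was listed more often and the form with T less often than there, with the background share inside the interval of each. In peaks near genes with CpG-rich promoters the shares were 37.3% for TGTGGT, 28.4% for TGCGGT and 57.8% for either. Median GC content was 61.5% in the 36 peaks and 57.0% in peaks near protein-coding genes.

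Windows of equal width 10 kb toward higher coordinates served as control, 35 in number, since 1 that overlapped a peak or held unknown bases was left out. They held TGTGGT in 25.7%, about the share in the peaks, and TGCGGT in 0. The median GC content of these windows was 45.3%, against 61.5% in the peaks, and their median ratio of observed to expected CpG was 0.164, against 0.834, and the part of base composition in the TGCGGT difference was not tested. Some weak peaks also held a hexamer at their centre: Eif1 (score 5.36) had TGCGGT centred 0 bp from the peak centre, and Eif2c2 (6.57) had TGTGGT at 1 bp.
Eif1, chr11:100180972-100181001, plus strand: gatggtagaacgTGCGGTaggcgcaggcgc
Eif2c2, chr15:73015866-73015895, minus strand: gggaggtggcggTGTGGTcacgcgcacggg
These windows are shown in the same form, to set the motif at weak peaks beside that at strong ones.

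Peaks with and without a hexamer overlapped widely in score. The 10 peaks with TGTGGT had a median of 11.2 (3.69 to 62.46), the 12 with TGCGGT but not TGTGGT 18.2 (3.17 to 104.35), and the 14 with neither 11.0 (4.23 to 35.17). The same classes of peaks near protein-coding genes had medians of 14.58, 14.82 and 9.84. Among the 10 strongest peaks of the group 9 held either form, and among the 10 weakest 6 did. The strongest were 427 to 1728 bp wide and the weakest 253 to 640 bp. The part of width in this difference was not tested.

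Motifs of other promoter factors were counted in the same way, on both strands. The GC box GGGCGG was in 24 of the 36 peaks (66.7%), against 51.8% of peaks near protein-coding genes and 58.1% near CpG-rich genes. The ETS core CCGGAA was in 13 (36.1%), against 29.5% and 33.4%. The CRE core TGACGT was in 7 (19.4%), against 14.6% and 16.2%, and the YY1 motif GCCATNTT also in 7, against 11.4% and 12.7%. The NF-Y box CCAAT was in 12 (33.3%), against 44.0% and 44.9%. A match of letters is not an occupied site, and with 36 peaks differences of this size are within the counting error of the shares.

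**Figure D5:**
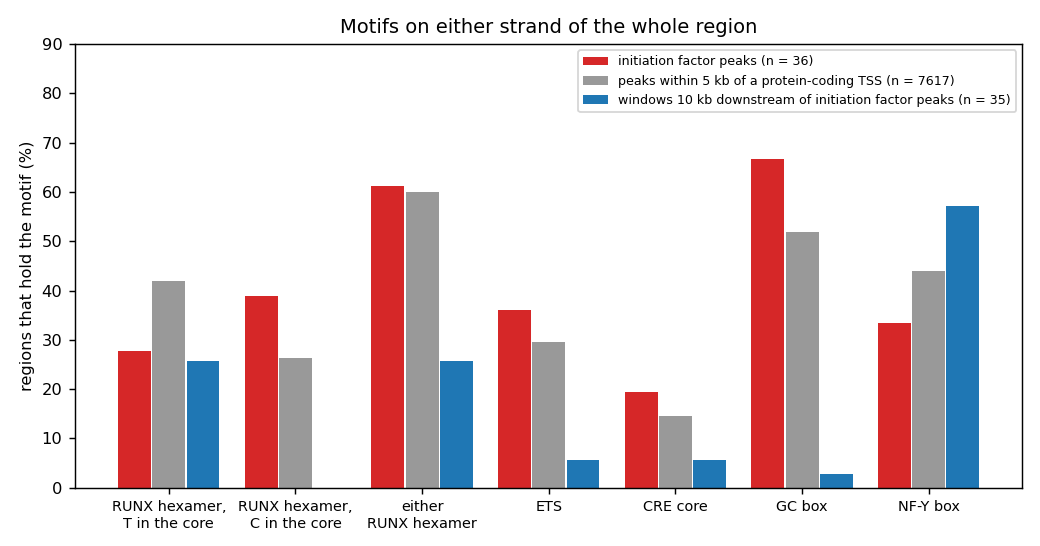
Share of regions that hold each motif on either strand (y axis, %) for the 36 peaks of the initiation factor genes (red), the 7617 peaks within 5 kb of a protein-coding TSS (grey) and 35 windows of equal width 10 kb toward higher coordinates (blue). Either RUNX hexamer was in 61.1% of red and 60.0% of grey regions, and in 25.7% of blue ones.

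The promoters themselves were compared without regard to peak borders. In windows of 500 bp at the TSS of the gene record, 14 of 30 bound genes of the group held either hexamer (46.7%) and 6 of 28 unbound ones (21.4%). Over all protein-coding genes the shares were 38.1% for bound and 32.5% for unbound genes, and 31.5% for genes with CpG-rich promoters. By form, TGCGGT was in 20.5% of all bound and 9.97% of all unbound genes, but TGTGGT in 21.4% and 24.4%. In the group TGCGGT was in 10 bound and 4 unbound genes, and TGTGGT in 6 and 2. The split for either hexamer within the group was wider than that over all genes, from 20 genes with a hexamer, and was not tested. Bound genes of the group also had CpG-rich promoters more often, and the part of promoter class in the split was not tested.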

How the data were processed

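Runx3 ChIP-seq of splenic CD4+ DC comprised 2 immunoprecipitates and 2 inputs. Per the submitters' processing notes, CASAVA 1.8, Bowtie and MACS2 were used with mm9. The authors called peaks once on the pooled samples and deposited each peak's start, end and score, whose unit, threshold and handling of duplicates are not given in the sources used here. The depth of each sample was not analysed here.

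Positions were counted from 1 on mm9, and sequences were read from NCBIM37, the same assembly. Genes and TSSs came from GENCODE M1. Peaks were placed by their centre and counted for every gene with a TSS within 5 kb. Introns and exons refer to the longest protein-coding transcript. The 5 non-coding genes with Eif symbols were left out. Hexamers were counted on both strands of the whole peak.

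The members, gene lists and motifs were chosen with earlier results of these data known. Values were given for the 15 genes with the highest score, the 3 with the lowest, genes with several peaks or with peaks beyond 1 kb, and those next to the limit, and all other members were named with their distance or score. No test was run, since 1 pooled list allows none. The scripts were tested on simulated data. Alternatives changed the distance, the TSSs, the placement of peaks, the score minimum, the joining of peaks closer than 300 bp, the assignment to the nearest TSS, the members and the hexamer. Computation used Python 3.11.15, numpy 2.4.6, pandas 2.3.3, scipy 1.17.1 and matplotlib 3.10.9.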

Additional observations from a re-analysis of the deposited data

How the results depend on the processing

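With peaks of at least the list median score, 15 genes of the group had a peak, from 17 peaks with a median score of 26.7, and 4009 protein-coding genes did. With peaks of at least the upper quartile it was 10 genes, 10 peaks, a median of 36.6 and 2067 protein-coding genes. Fewer peaks enter by construction. Counting TGTGGT or TGCGGT in place of TGTGGT alone raised the share of peaks from 27.8% to 61.1%. The other settings were 1 kb or 10 kb, other TSSs, any base of the peak, joined peaks, nearest TSS, without Argonaute genes, and without chromosomes X and Y. Under these 27 to 33 genes and 30 to 43 peaks were counted, the 27 being out of 54 without the Argonaute genes. The background moved as well: at 1 kb 48.3% of the group and 24.9% of all protein-coding genes had a peak, and at 10 kb 56.9% and 36.7%. The median score stayed within the binomial interval of the median, 8.31 to 20.62. No paired analysis was possible because the deposited list is 1 call on all samples without a value per replicate, and for the same reason no replicate could be left out.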

Other observations

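The non-coding genes with Eif symbols, 4 pseudogenes and the processed transcript Eif2c5, had no peak within 5 kb, the nearest centre being 41038 bp from Eif4a-ps4.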
